A study of Mus musculus with 12 samples.

Results

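The transcript profile of normal mouse corneal endothelium was read from the 6 wild-type libraries of a series of 12, by ranking genes on their mean FPKM, a count scaled to the gene's length and to the library's total. The series holds 4 groups of 3 biological replicates, and the 6 libraries taken here are the early wild type (mice of up to 2 months, batch 1) and the late wild type (mice of 8 months or more, batch 2). The other 6 libraries, from mice with the Q455K change in Col8a2, entered no comparison between genotypes. Neither wild-type group carried a transgene or a treatment per the labels, and no source used here gives strain, sex or the number of animals in a library. Age and batch cannot be told apart.

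The corneal endothelium is the single layer of cells on the inner face of the cornea. It keeps the stroma clear by moving ions and bicarbonate toward the aqueous humour, which draws water out. Its sodium pump, bicarbonate transporters, carbonic anhydrases and aquaporin serve that transport, and abundant mitochondria supply the energy. Its basal side secretes Descemet membrane, a basement membrane rich in collagen VIII and collagen IV. The layer derives from periocular neural crest, and transcription factors such as Foxc1, Lmx1b and Tfap2b act in its formation.

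The table listed 32761 genes, of which 9842 had a mean of at least 1 FPKM over the 6 libraries, 3554 at least 10, 836 at least 100 and 70 at least 1000. Of those 9842 genes, 9227 were protein-coding, and 8009 reached 1 FPKM in every library. Total counts ran from 19722598 to 34728823, so that 3 counts in a library correspond to 0.0864 to 0.152 CPM (counts scaled to the library total alone). Each of the 6 libraries held both Xist (4.37 to 10.3 FPKM), which is transcribed in females, and the Y-linked Ddx3y (2.00 to 6.79 FPKM).

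One library stood apart. Early replicate 2, the least deeply sequenced, had counts in 31527 genes, 96.2% of the table, against 19317 to 22812 in the other 5. Of these, 5866 genes had counts in that library alone, at a median of 0.213 FPKM, and 720 of 782 odorant and vomeronasal receptor genes were counted there against 19 to 85 elsewhere. The levels concerned were low: genes below 0.1 FPKM in the other libraries made up 0.767% of its summed FPKM. Without it, 9739 genes reached 1 FPKM and 99 of the 100 most abundant genes stayed the same. The lens and lymphocyte sums and the main counts are given with and without it.

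Markers of corneal endothelium were read in these libraries, from a list made with earlier results of these data known. Their levels are thus a description and no independent check of the tissue. Of 28 listed markers, 26 were matched in the table, 21 had at least 1 FPKM and 10 at least 100. Over all 32761 genes, 9842 had at least 1 FPKM and 836 at least 100, and 44.8% of protein-coding genes reached 1 FPKM. Slc4a11, Aqp1, Atp1b1, Col8a2, Col8a1 and Tfap2b were all above 100 FPKM. The cell surface markers Alcam (68.6 ± 21.7 FPKM, SD, n = 6) and Ncam1 (43.2 ± 10.2) were at intermediate levels, and Cdh2, the main cadherin of this layer, was at 6.64 ± 2.58 FPKM. Enpp2, Slc4a7, Glp1r, Cntn6 and Cntn3 were below 1 FPKM. Genes in bulk RNA carry one limit throughout: fewer cells of a type and less RNA per cell cannot be told apart.

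The most abundant transcript was Car3, which encodes carbonic anhydrase III, a cytosolic enzyme best known from skeletal muscle and fat. It measured 55025, 37046 and 36636 FPKM in early replicates 1 to 3 and 47705, 52881 and 45916 in late replicates 1 to 3. The stages overlapped, with early replicates 2 and 3 the lowest of the 6. Car3 alone took at least 5.91% of the summed FPKM in every library. Tmsb4x, which encodes the actin-sequestering peptide thymosin beta 4, followed at 26985 ± 5351 FPKM (SD, n = 6).

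Npy, the gene of the neuropeptide Y precursor, ranked the third. Its values were 24058, 30387 and 34007 FPKM in the early libraries and 27732, 20589 and 19087 in the late ones. Both stages overlapped again, with late replicates 2 and 3 the lowest of the 6. Apoe, which encodes a lipid-carrying apolipoprotein, stood at 16435 ± 3992 FPKM, and Igfbp2, an insulin-like growth factor binding protein, at 12817 ± 4504. Igfbp2 ranged widely, from 8519 in late replicate 2 to 20598 in early replicate 2.

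Bsg, the gene of basigin, the membrane partner of lactate transporters, measured 10725, 8151 and 11890 FPKM early and 11953, 15416 and 12965 late. The lowest late library lay just above the highest early one. Dcn, which encodes the collagen-binding proteoglycan decorin, had 9412 ± 1089 FPKM. The ferritin chains Ftl1 and Fth1, which store iron, had 7943 ± 1559 and 4455 ± 1238, and Ubb, a polyubiquitin gene, had 6420.3 ± 1171. Mgarp, which encodes a mitochondrial protein, reached 5634 ± 1153 FPKM and ran from 3922 in late replicate 3 to 7354 in late replicate 1.

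Cldn10, a claudin that forms ion-selective pores in tight junctions, was among the most even of the abundant genes. It measured 4614, 5335 and 5209 FPKM in the early libraries and 4969, 5488 and 5884 in the late ones. No library differed from another by more than 1.28 times. Below it came Nupr1, a stress-induced nuclear protein (4105 ± 1157), the interferon-inducible membrane proteins Ifitm3 (2730 ± 692) and Ifitm2 (2440 ± 320), and Cnmd, the cartilage protein chondromodulin (2327 ± 820). Clu, which encodes the secreted chaperone clusterin (2275 ± 531), and Actb, cytoplasmic actin (2076 ± 942), closed the leading group with Uqcr11, a subunit of respiratory complex III (2242 ± 558).

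Gpha2, a glycoprotein hormone subunit, ranked 23 but owed much of its mean to 1 library. It was at 1727, 1992 and 5081 FPKM in early replicates 1 to 3 and at 1577, 1304 and 1563 in late replicates 1 to 3. All late values lay below all early ones, and early replicate 3 was far above every other library.

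**Figure D1:**
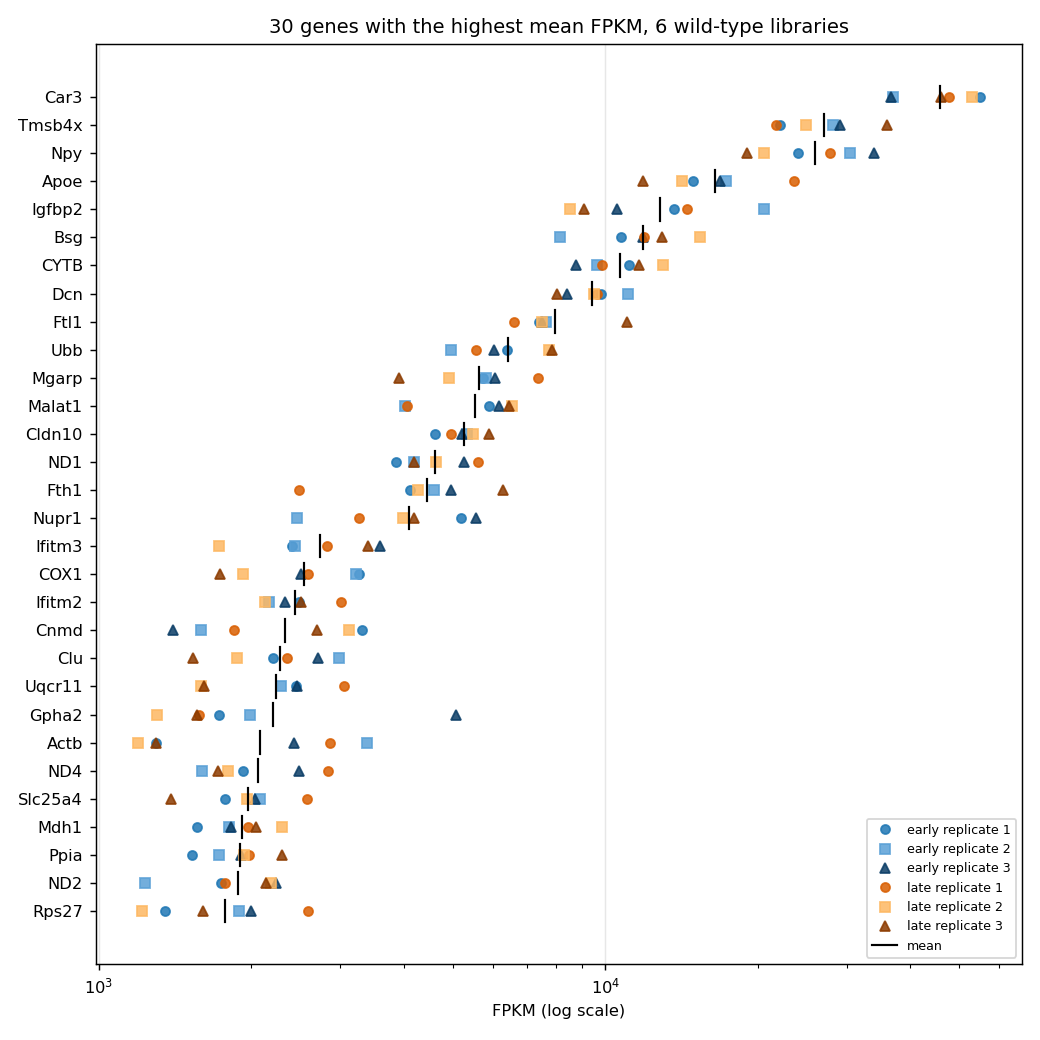
FPKM (log scale) of the 30 genes with the highest mean over the 6 wild-type libraries, with 1 point per library (blue early, orange late) and the mean as a black bar. Car3 leads at a mean of 45868 FPKM, Cldn10 is tight across libraries, and Gpha2 has 1 point at 5081 far above its other 5.

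The profile was concentrated in few genes. The 10 most abundant genes took 28.5% of the summed mean FPKM, the 100 most abundant 51.0% and the 1000 most abundant 84.0%. The share of the 100 most abundant in single libraries ran from 49.9% to 54.6%. Of these 100 genes, 99 were protein-coding, and the exception was the nuclear noncoding RNA Malat1, at 5527 ± 1173 FPKM. The next noncoding genes were Pantr1 (593 ± 150) and Gm26917, which ran from 79.5 in early replicate 1 to 705 in early replicate 3, followed by the snoRNA host gene Gas5 (332 ± 59.0).

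Short genes filled much of the top. The median length of the 100 most abundant genes was 857 bases, against 3100 for all genes of at least 1 FPKM, and 57 of the 100 were under 1000 bases. Ranked by CPM, which ignores length, 59 of the 100 stayed in place. Car3 still led at 70499 CPM, followed by Apoe (40102) and Malat1 (38598), while Npy fell to rank 8 with 14703 CPM.

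By the Gene Ontology terms that the authors' tables carry, 49 of the 100 most abundant genes were annotated to the mitochondrion, against 13.7% of all genes of at least 1 FPKM. For the mitochondrial inner membrane these were 37 of 100 against 4.55%, and for the extracellular space 14 of 100 against 5.18%. Nuclear annotation went the other way, at 24 of 100 against 36.5%. Cytosolic ribosomal protein genes numbered 86, of which 83 reached 1 FPKM and 6 were in the 100 most abundant, and they took 4.66% of the summed FPKM.

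Promoter windows of a few of these genes are printed to show the sequence just upstream of the start of leading transcripts and of both collagen VIII chains. Windows of 300 bases (250 before and 50 after an annotated start) came from RefSeq on GRCm38.p6, and 76 of the 100 most abundant genes matched, with 92 windows. The words searched on both strands were TATAAA, the TATA box core, GGGCGG, the GC box bound by Sp factors, and TAATCC, the word bound by bicoid-type homeodomains. None of the words overlaps another as spelled here, and a window counts once for a word however often it holds it.

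GGGCGG was in 52.2% of the windows of the 100 most abundant genes, in 62.5% of the windows of all genes of at least 1 FPKM and in 35.7% of all windows in the table. TATAAA anywhere in the window was in 14.1%, 7.13% and 13.6% of the same 3 sets, and TAATCC in 3.26%, 5.83% and 7.06%. A forward TATAAA starting 20 to 40 bases before the start was found in 2 of the 92 windows (2.17%), those of Ppia and Gstm1. The share was 1.16% for genes of at least 1 FPKM, 1.99% for all windows and 3.52% for protein-coding genes below 1 FPKM. The share of the 100 most abundant genes was thus near that of all windows. A match is a description of letters and shows no binding.

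The last 100 bases before the start follow, 5′ to 3′ on the gene's strand, with TATAAA and GGGCGG (or its reverse complement) in capitals. Ppia, the gene of the prolyl isomerase cyclophilin A, lies at chr11:6415767-6415866 on the plus strand, and its TATAAA begins 29 bases before the start.
Ppia: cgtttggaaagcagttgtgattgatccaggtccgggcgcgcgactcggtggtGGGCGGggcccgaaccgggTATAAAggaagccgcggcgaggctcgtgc
Gstm1, a glutathione transferase gene, lies at chr3:108017819-108017918 on the minus strand, with TATAAA 30 bases before the start and no GC box.
Gstm1: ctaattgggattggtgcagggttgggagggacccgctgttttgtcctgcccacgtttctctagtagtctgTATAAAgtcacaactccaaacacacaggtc
Npy lies at chr6:49822610-49822709 on the plus strand and holds 1 GC box.
Npy: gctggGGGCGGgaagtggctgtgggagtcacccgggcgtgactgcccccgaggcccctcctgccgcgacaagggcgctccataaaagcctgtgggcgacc
Cldn10 has 2 annotated starts on the plus strand, and the gene-level FPKM does not say which was used. The window at chr14:118787771-118787870 holds neither word, and that at chr14:118854850-118854949 holds GC boxes.
Cldn10, upstream start: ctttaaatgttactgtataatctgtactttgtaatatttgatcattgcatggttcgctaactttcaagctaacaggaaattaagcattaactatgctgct
Cldn10, downstream start: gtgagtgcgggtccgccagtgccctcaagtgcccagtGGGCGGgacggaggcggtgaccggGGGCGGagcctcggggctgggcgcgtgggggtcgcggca
The windows of both collagen VIII chains, Col8a1 at chr16:57754738-57754837 on the minus strand and Col8a2 at chr4:126286694-126286793 on the plus strand, hold GC boxes and no TATAAA.
Col8a1: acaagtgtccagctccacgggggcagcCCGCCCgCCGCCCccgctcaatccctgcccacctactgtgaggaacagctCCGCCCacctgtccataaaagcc
Col8a2: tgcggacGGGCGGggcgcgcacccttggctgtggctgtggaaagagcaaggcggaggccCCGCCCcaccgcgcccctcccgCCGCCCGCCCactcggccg

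Among transport genes, 1 or 2 members dominated each group. Of 14 genes of the sodium pump and its FXYD regulators, 8 reached 1 FPKM. Atp1b1, the beta 1 subunit, measured 275, 450 and 359 FPKM early and 420, 615 and 543 late, and Atp1b3 averaged 263 ± 71.7. The stages overlapped for Atp1b1, with late replicates 2 and 3 the highest of the 6. Atp1b2 averaged 6.13 and Fxyd2 5.19 FPKM, while Fxyd4, Fxyd3, Fxyd7 and Atp1a4 were below 1.

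Slc4a11, an SLC4 family transporter that is mutated in endothelial dystrophy, was the leading bicarbonate-family gene. It had 978, 1457 and 774 FPKM in the early libraries and 1649.5, 484 and 501 in the late ones. Late replicate 1 was the highest of all 6 and the other late libraries the lowest, so the range within the late group exceeded the difference between the stage means. Slc4a4, the sodium bicarbonate cotransporter, had 26.0 ± 10.2 FPKM, and Slc4a8 and Slc4a2 had 3.05 and 2.26. Of the 17 listed genes 12, Slc4a3, Slc26a6, Slc4a7, Slc4a9, Slc26a4, Adcy10, Slc4a10, Slc4a5, Slc9a3, Slc4a1, Slc9a2 and Cftr, were below 1 FPKM.

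Carbonic anhydrases interconvert carbon dioxide and bicarbonate, and Car3 made up 99.6% of the summed FPKM of the 15 listed. Car9 (107 ± 25.2) and Car14 (81.7 ± 27.8), both membrane-bound, came next. Car11 averaged 6.42 and Car5b 2.18 FPKM. Car2, the cytosolic enzyme with high activity, was at 1.64 ± 0.111 FPKM and between 1.43 and 1.72 in every library. Car12, Car1, Car7, Car13, Car5a, Car6, Car8, Car4 and Car10 were below 1.

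Aqp1, the water channel of this layer, carried 99.0% of the aquaporin sum. It measured 974, 1043 and 754 FPKM early and 1527, 454 and 413 late. Its order over the libraries was close to that of Slc4a11, with late replicate 1 the highest and late replicates 2 and 3 the lowest. Aqp5 averaged 5.67 FPKM but reached 12.4 in early replicate 2 and 13.5 in late replicate 3, and Aqp11 averaged 1.77. Aqp3, Aqp9, Aqp2, Mip, Aqp8, Aqp4, Aqp12, Aqp7 and Aqp6 were below 1.

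Of 24 carriers of lactate, glucose and other nutrients, 17 reached 1 FPKM. Behind Bsg came the amino acid transporter subunit Slc3a2 (116 ± 12.4), the glucose transporter Slc2a1 (112 ± 55.3), the taurine transporter Slc6a6 (41.3 ± 10.3) and Slc7a5, the partner of Slc3a2 (22.5 ± 12.8). The lactate transporters themselves were low beside their partner Bsg, with Slc16a3 at 2.75 and Slc16a1 at 2.65 FPKM. Slc2a13, Slc7a11, Slc2a4, Slc23a1, Slc16a8, Slc2a12 and Slc16a7 were below 1.

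Among 30 chloride and potassium carriers and channels, 12 reached 1 FPKM, led by Clic1, a chloride intracellular channel protein (188 ± 32.8). Clcn4 (18.1), Kcnk1 (13.0), Slc12a4 (10.9) and Clic4 (9.15) followed. The sodium, potassium and chloride cotransporter Slc12a2 averaged 1.40 FPKM. Abcc8, Clcn5, Clcn6, Kcnj13, Slc12a7, Clcn2, Kcnj11, Clic6, Ano1, Kcnj8, Kcnq1, Clic5, Kcnk2, Abcc9, Kcnma1, Kcnk6, Kcne4 and Kcnj2 were below 1.

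**Figure D2:**
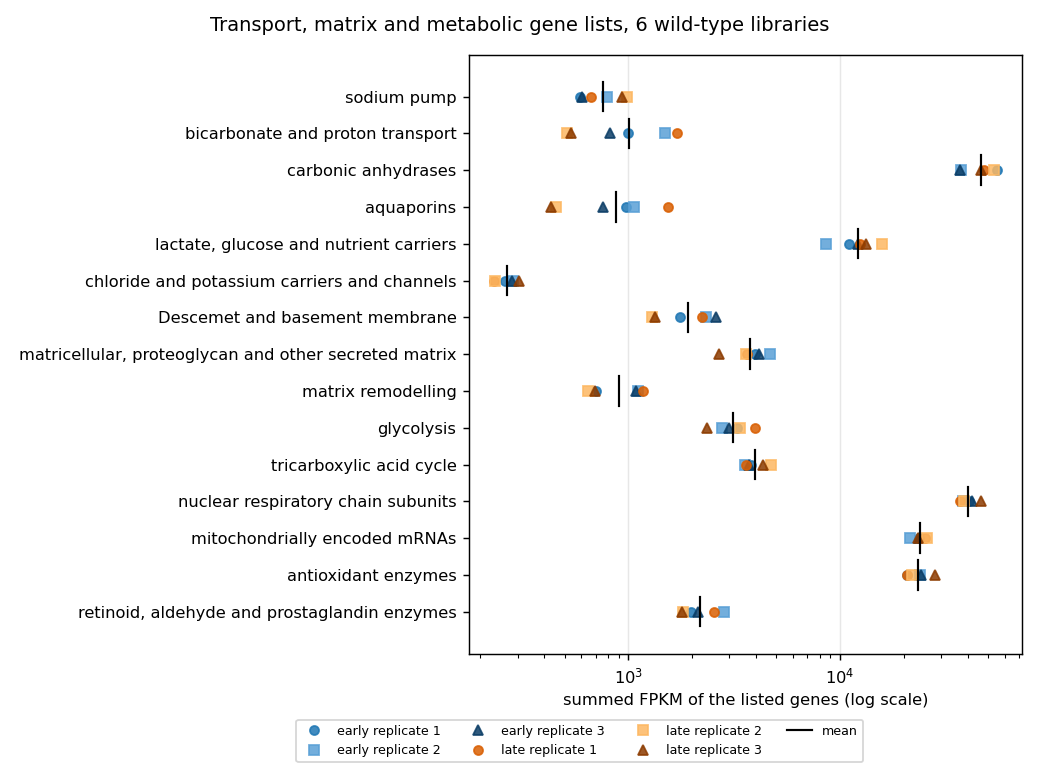
Summed FPKM (log scale) of the genes in each transport, matrix and metabolic list, with 1 point per library and the mean as a black bar. Nuclear respiratory chain subunits, mitochondrially encoded mRNAs and carbonic anhydrases sum highest, and the aquaporin and bicarbonate sums spread most, 3.56 and 3.32 times from lowest to highest.

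Basement membrane genes were led by Sparc, which encodes a collagen-binding protein of basement membranes. It measured 932, 1697 and 1582 FPKM in the early libraries and 1234, 817 and 864 in the late ones, with overlap. Of 29 genes for Descemet and other basement membranes, 18 reached 1 FPKM. The collagen VIII chain Col8a2 had 325, 156 and 294 FPKM early and 295, 161 and 160 late. Col8a1 had 156, 194 and 300 FPKM early and 291, 119 and 125 late. The chains averaged 232 ± 80.7 and 197 ± 80.5, so their means differed by less than the spread between libraries.

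The collagen IV chains Col4a3 (80.5 ± 41.7) and Col4a4 (62.2 ± 19.0) were above Col4a1 (38.4) and Col4a2 (32.7). Col4a6 and Col4a5 were at 15.3 and 10.3 FPKM. These were levels per gene length in whole tissue. The laminin subunit Lamb2 averaged 14.3 and Lamc1 2.19, and Vtn, Tgfbi, Lama2, Lama4, Col18a1, Lamb3, Lamc3, Col15a1, Lama1 and Lama3 were below 1.

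Of 39 matricellular, proteoglycan and other secreted matrix genes, 24 reached 1 FPKM, led by Clu. Sdc4, a heparan sulfate proteoglycan of the cell surface, averaged 392 FPKM, but late replicate 2 was at 842 while the other 5 lay between 188 and 402. Ccn1, a matricellular signalling protein, had 505, 506 and 298 FPKM early and 252, 259 and 253 late, without overlap. Bgn, the proteoglycan biglycan, averaged 146 ± 32.3. Spp1, which encodes osteopontin, was at 194 in early replicate 1 and between 62.2 and 82.7 in the others. Matn4, Ltbp4, Efemp1, Gpc1, Ltbp1, Eln, Tnxb, Ccn5, Thbs3, Fbn2, Tnc, Matn2, Ltbp2, Ccn3 and Vcan were below 1.

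Among 27 genes of matrix remodelling, 18 reached 1 FPKM, and inhibitors of proteases led. The metalloproteinase inhibitors Timp3 and Timp2 had 476 ± 177 and 129 ± 44.0 FPKM, against 19.3 for Mmp2 and 8.77 for Mmp14. The collagen-folding enzymes P4hb (80.8) and P4ha2 (36.6) and the crosslinking enzyme Loxl1 (29.6) completed the leading 5. Adamts5, Timp4, Adamts4, Loxl4, Mmp17, Mmp15, Mmp9, Mmp13 and Mmp10 were below 1.

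Energy metabolism took a large share of the profile. All 68 listed nuclear subunits of the respiratory chain and ATP synthase were above 1 FPKM and 61 above 100, with a median member at 453. Their sum was 40364 ± 3359 FPKM, or 6.59% of the total, and it differed by only 1.26 times between the highest and the lowest library. Cox4i1 (1597 ± 259) and Cox6a1 (1422 ± 394), of cytochrome c oxidase, Uqcr10 of complex III (1580.4 ± 170) and Ndufa7 of complex I (1311 ± 190) followed Uqcr11. The lowest member was Ndufs1, at 8.04 FPKM.

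The 13 mitochondrially encoded mRNAs summed to 23839 ± 1508 FPKM, 3.90% of the total. CYTB, the mitochondrial subunit of complex III, had 11146, 9628 and 8756 FPKM early and 9850.2, 13028 and 11638 late, and ND1, a complex I subunit, averaged 4621 ± 681. COX1 (2541), ND4 (2058) and ND2 (1886) were also among the 100 most abundant. COX2 (105), COX3 (104), ATP6 (157) and ATP8 (24.7) were far lower, although all are parts of the same genome. These genes have near-identical copies elsewhere in the genome, whose share of the reads is uncertain here, and the same caution holds for Gapdh (38.7), Aldoa (4.07) and the ribosomal protein gene Rpl28 (0.184).

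All 22 genes listed for the tricarboxylic acid cycle were above 1 FPKM. Mdh1 led, with 1564, 1805 and 1825 FPKM early and 1972, 2305 and 2047 late, and the stages did not overlap. It encodes the cytosolic malate dehydrogenase, not the mitochondrial enzyme of the cycle, and made up 48.6% of the list's summed FPKM. Sdhb (532), Mdh2 (403), Idh3g (214) and Sdhd (166) followed. Of 20 glycolytic genes 18 reached 1 FPKM, led by Eno1 (900 ± 291), Tpi1 (654 ± 166), Ldhb (369 ± 72.2), Pkm (240 ± 89.0) and Pgk1 (215 ± 56.1). Eno1 ranged from 500 in late replicate 3 to 1383 in late replicate 1.

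All 32 antioxidant and metal-binding genes listed were above 1 FPKM and 19 above 100. After the ferritins came the metallothionein Mt1 (1698 ± 548), the peroxiredoxin Prdx5 (1280.0 ± 194) and the glutathione transferase Gstm1 (1260.0 ± 199). Of 19 retinoid, aldehyde and prostaglandin genes, 13 reached 1 FPKM. Aldh3a1, a corneal aldehyde dehydrogenase, led with 1320 ± 385 FPKM, ahead of Ptgds (235 ± 99.8), Ptgis (97.0) and Aldh1a1 (61.1). Ptgds, which makes prostaglandin D2, had 156, 122 and 176 FPKM early and 253, 341 and 361 late, without overlap, although edgeR's adjusted p was 1 for a log2 fold change of 1.13 ± 0.36 (SE).

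Transcription factors were sparse and low beside these genes. The deposited annotation marks 1526 genes of the table as transcription factors, of which 568 (37.2%) reached 1 FPKM, against 44.8% of all protein-coding genes. The median of those above 1 FPKM was 2.71, against 5.67 for protein-coding genes, and all factors together took 1.13% of the summed FPKM. Only 11 factors reached 100 FPKM. The shares differed by family, with 8.82% of 204 homeobox genes at 1 FPKM, 18.2% of 44 forkhead genes, 40.7% of 563 C2H2 zinc finger genes and 57.7% of 52 bZIP genes.

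Id3, which blocks bHLH factors from binding DNA, was the most abundant. It measured 1051, 1481 and 1253 FPKM early and 2294, 895 and 1004 late, with late replicate 1 the highest. Its relatives Id1 (225 ± 52.0) and Id2 (112 ± 27.7) were also among the leading 20. Sub1, a general coactivator, had 367 ± 149 FPKM, and Cnbp, a nucleic acid binding protein, 298 ± 83.7.

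Tfap2b, an AP-2 factor of the periocular neural crest, had 102, 96.2 and 123 FPKM early and 120, 158 and 141 late. The stages overlapped, and late replicates 2 and 3 were the highest. Among homeobox genes Emx2 was at 15.8 FPKM, with Zfhx4 (12.8), Prrx1 (12.2), Meis3 (11.7), Msx1 (8.65) and Lmx1b (6.98).

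The other factors of the leading 20 were Nme2 (170), Glmp (152), Phb (127), Creb3 (111), Hif1a (98.9), Zfp414 (82.1), Zfp706 (69.3), Tax1bp1 (69.0), Xbp1 (46.4), Tsc22d1 (46.2), Nr2e3 (43.9), Son (43.1) and Irf3 (41.7). Several, such as the lysosomal membrane protein Glmp and the mitochondrial prohibitin Phb, are counted as factors only by that annotation. Nr2e3, known as a photoreceptor nuclear receptor, lay between 27.3 and 54.2 FPKM in every library.

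**Figure D3:**
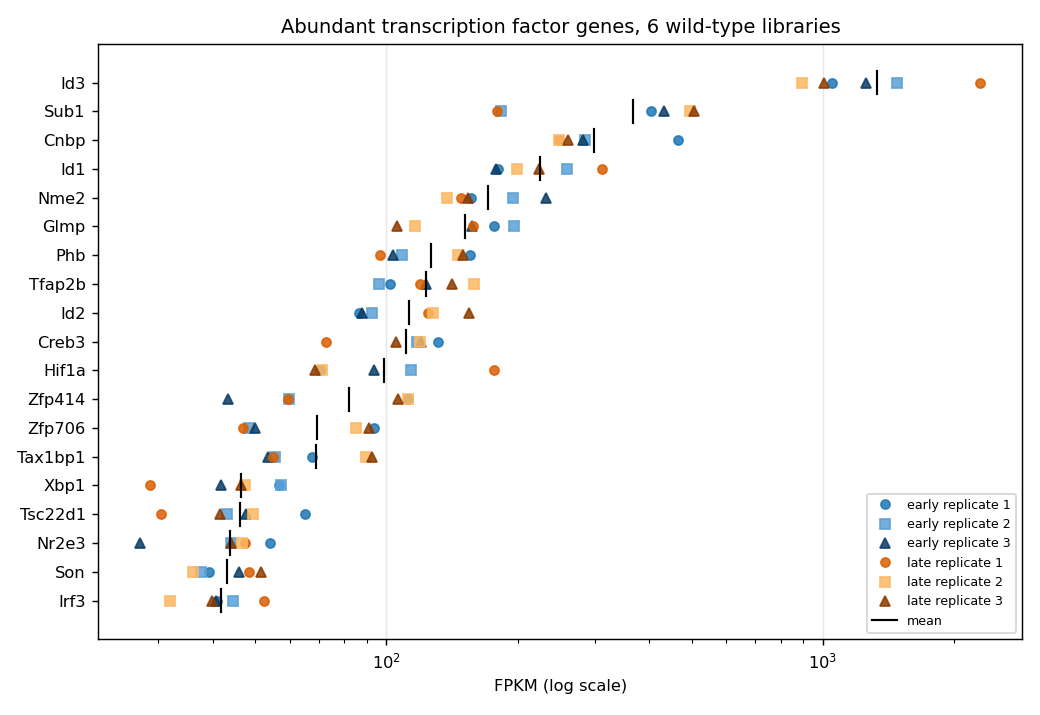
FPKM (log scale) of 19 of the 20 transcription factor genes with the highest mean, with 1 point per library and the mean as a black bar. Id3 leads at a mean of 1330 FPKM, Tfap2b averages 123, and late replicate 1 is the highest for Id3, Id1 and Hif1a.

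Of 52 factors listed for the endothelium and periocular neural crest, 16 reached 1 FPKM. After Tfap2b, the listed factors included Twist1 (14.2 ± 3.42), Maf (11.6 ± 4.02) and Tcf4 (11.2 ± 1.22), the last being the gene of the common repeat expansion in Fuchs dystrophy. Foxc1 averaged 6.59 ± 2.75. Below 1 FPKM were Snai1, Snai2, Klf10, Zeb1, Nr2f1, Prdm16, Nr2f2, Klf5, Twist2, Six4, Pax6, Klf2, Klf4, Six3, Ovol2, Meis1, Meis2, Dlx5, Zeb2, Sox9, Otx2, Eya1, Sox10, Gata2, Otx1, Eya4, Tbx18, Tfap2a, Foxe3, Tfap2c, Hmx1, Grhl2, Foxc2 and Six2. Zeb1, a repressor of epithelial genes that is mutated in endothelial dystrophies, was at 0.701 FPKM and between 0.545 and 0.901 in every library.

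Of 19 immediate early factors 9 reached 1 FPKM, where 37.2% of annotated transcription factors and 44.8% of protein-coding genes did. None reached 100 FPKM. Ier3 (40.9 ± 9.91), Ier2 (7.73), Btg2 (7.71) and Jun (6.04) were led in spread by Jund. Jund was at 36.7 FPKM in early replicate 2 and 45.9 in late replicate 1, and between 3.04 and 9.44 in the other 4. Myc, Fosl2, Atf3, Nr4a1, Nr4a2, Fosb, Egr2, Fosl1, Nr4a3 and Egr3 were below 1.

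Cldn10 made up 93.1% of the summed FPKM of 42 junction and adhesion genes, 23 of which reached 1 FPKM. Alcam, Ctnna1 (alpha catenin, 54.8 ± 16.6), Gja1 (connexin 43, 50.8 ± 17.1) and Ncam1 followed. The tight junction scaffold Tjp1 was at 7.13 ± 1.99 FPKM. Tjp3, Cldn23, Itga5, Cdh4, Cgn, Cdh11, Gjb2, Dsg2, Cdh3, Cdh5, Nrcam, Cdh13, Cdh1, Cldn1, Ocln, Gjb6, Cldn11, Cldn19 and Cdh6 were below 1. Of 11 genes linked to Fuchs dystrophy, 6 reached 1 FPKM: Slc4a11, Atp1b1, Col8a2, Tcf4, Lamc1 and Kank4 (1.79), while Zeb1, Ovol2, Loxhd1, Agbl1 and Grhl2 did not.

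The spread between libraries was far above counting error. Over the 9842 genes of at least 1 FPKM the median coefficient of variation, the SD divided by the mean, was 0.304 across the 6 libraries, against 0.0421 from counting alone. It was 0.245 within the early group and 0.339 within the late group. The median fell from 0.339 for genes of 1 to 10 FPKM to 0.254, 0.225 and 0.212 for genes of 10 to 100, 100 to 1000 and over 1000 FPKM. In 35.9% of genes the highest library was less than 2 times the lowest.

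The libraries resembled each other in level across genes, and late replicate 1 had the lowest mean correlation with the others (0.956). Across genes, which are not independent replicates, the correlation of log2(FPKM + 1) was 0.972 to 0.977 within the early group, 0.937 to 0.978 within the late group and 0.958 to 0.973 between them. Late replicate 1 correlated at 0.9374 and 0.9367 with late replicates 2 and 3, and at 0.9732 and 0.9725 with early replicates 2 and 3. Late replicates 2 and 3 correlated with each other at 0.978. Late replicate 1 was the highest library for 29.4% of genes and the lowest for 21.0%, and late replicate 2 was the lowest for 26.3%.

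The most even genes of at least 100 FPKM were Tspo, the mitochondrial translocator protein, Ppdpf, Eif1, Rhoj, Mia, Churc1, Cldn10, Tecr, Cops6 and Rpl3. Tspo measured 762, 858 and 808 FPKM early and 816, 915 and 797 late. Mia, a secreted protein first known from melanoma and cartilage, had 1186 ± 94.2 FPKM, and the translation factor Eif1 352 ± 26.2. The 10 genes with the highest ratio of the highest library to the median, at a mean of at least 10 FPKM, were of another kind. They were Krt15, Cryaa, ND4L, Crybb2, Lce3a, Cryba1, Jund, Penk, Mlana and Tspan12, among them lens crystallins, keratinocyte genes and a melanocyte antigen. ND4L was at 96.0 FPKM in late replicate 2 and at 7.49 in early replicate 1.

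**Figure D4:**
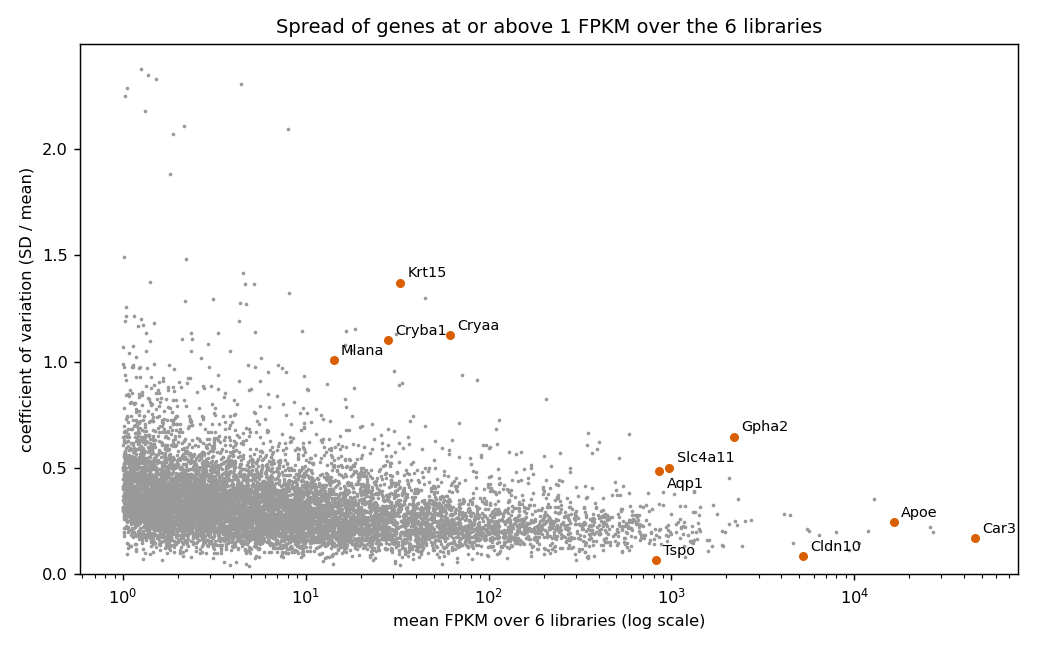
Coefficient of variation against mean FPKM (log scale) for the 9842 genes of at least 1 FPKM, with grey points for all genes and orange points for named ones. The cloud narrows toward abundant genes, Tspo and Cldn10 lie at its lower edge, and Krt15, Cryaa, Cryba1 and Mlana lie far above it.

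The late and early wild-type groups were compared by edgeR's quasi-likelihood test over all genes, and no gene passed. Of 16058 genes tested, 0 (0%) were higher and 0 (0%) lower in the late libraries at an adjusted p of 0.05, and the smallest Benjamini-Hochberg adjusted p was 1. At an unadjusted p of 0.05 there were 256 genes, 1.59% of those tested. DESeq2's Wald test and limma-voom also called 0 genes. At an unadjusted p of 0.05 DESeq2 had 1275 of 32208 genes (3.96%), without the low-count filter, and limma-voom 212 of 16058 (1.32%). Without late replicate 1 edgeR still called 0 genes, but 1590 of 17508 (9.08%) passed an unadjusted p of 0.05. With 3 libraries a group and a common biological coefficient of variation of 0.484, a missing call does not show that levels were equal. The replicates are separate samples by their labels, and the p-values set the difference between stages against the spread between replicates within a stage.

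The smallest unadjusted p in this fit belonged to Cryba1, with a log2 fold change of -1.88 ± 0.46 (SE) late against early, then Isoc1 (1.57 ± 0.39), Cryaa (-1.85 ± 0.47), Usp2 (1.39 ± 0.35) and Glul (1.47 ± 0.40). These 5 were named after their values were seen, and edgeR's adjusted p was 1 for each. Glul, which encodes glutamine synthetase, had 208, 158 and 204 FPKM early and 280, 625 and 595 late, without overlap. Isoc1 had 29.2, 34.96 and 36.1 FPKM early and 50.2, 112 and 114 late. Without early replicate 2 the log2 fold changes of the crystallins Cryba1 and Cryaa were -1.08 and -0.99.

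Counted by overlap alone, 194 of the 9842 genes (1.97%) had all 3 late libraries above all 3 early ones, and 295 (3%) had all 3 below. Among the 100 most abundant genes these were 4 above, Bsg, Mdh1, Ppia and Oaz1, and 1 below, Gpha2. Read against the shares of all genes, these counts differ by a few genes. The log2 fold changes were 0.44 ± 0.34 (SE) for Bsg, 0.35 ± 0.32 for Mdh1 and -0.90 ± 0.39 for Gpha2, each with an edgeR adjusted p of 1.

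The lists of transport, matrix and metabolic genes had no called member. Over all genes tested the median log2 fold change was 0.04, with 8661 (53.9%) above 0, and without early replicate 2 it was -0.01, with 49.3% above 0. The medians were -0.28 for 26 Descemet and basement membrane genes, -0.27 for 37 secreted matrix genes and -0.37 for 23 remodelling genes. Of these, 4, 10 and 4 members lay above 0. The 3 medians stayed below 0 when any 1 library was left out, at -0.20 to -0.47, -0.15 to -0.33 and -0.29 to -0.51. The median was 0.11 for nuclear respiratory chain subunits (55 of 68 above 0), but -0.05 without early replicate 2 (25 of 68) or without late replicate 3 (21 of 68). For mitochondrially encoded mRNAs the median was 0.27 (11 of 13 above 0), and 0.10 to 0.26 when any 1 library was left out. The 0.10 was without early replicate 2 (8 of 13). It was 0.28 for the sodium pump list (9 of 12 above 0), and -0.25 without late replicate 3 (5 of 12).

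For lens genes the median was -1.18, with 5 of 17 above 0, and without early replicate 2 it was -0.04, with 7 of 17 above 0. Retinal, pigment cell and epithelial lists had medians above 0. The median was 0.63 for photoreceptor genes (24 of 27 above 0), 0.46 for inner retina genes (14 of 14), 0.66 for pigment cell genes (13 of 15) and 0.61 for epithelial genes (19 of 24). Leaving out any 1 library gave 0.48 to 0.80 for photoreceptor and 0.27 to 0.70 for inner retina genes. Inner retina genes above 0 then ran from 13 of 17 (without early replicate 3) to 15 of 17 (without late replicate 3). Only 4 of the 25 listed inner retina genes had a mean of at least 1 FPKM. The pigment cell median was -0.01 without late replicate 2 (7 of 15), and the epithelial median -0.80 without late replicate 3 (5 of 25).

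The marker lists of neighbouring tissues differed widely in their sums and in which library was highest. The lens list summed to 1878 ± 341 FPKM, but 75.3% of it was Cryab, a small heat shock protein found in many tissues, and Grifin (222 ± 26.6) was even across libraries. The other 26 lens genes summed to 112, 739 and 204 FPKM early and 97.6, 141 and 157 late. Early replicate 2 stood far above the rest, and the mean was 242 with it and 142 without it.

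Early replicate 2 was the highest library for 22 of the 28 lens genes, against 15.6% of all genes of at least 1 FPKM. It was also the highest for 13 of 19 vascular and 12 of 23 myeloid genes, but for 2 of 29 photoreceptor genes. In these lists 10 lens, 14 vascular, 8 myeloid and 13 photoreceptor genes had a mean below 1 FPKM. The share of 15.6% does not cover such genes. Over 16190 genes with a mean below 0.1 FPKM in the other libraries, the median was 0.132 FPKM in early replicate 2. It was 0 in each other library. The part of the many low counts of early replicate 2 in these numbers was not tested. Cryab was not among the 22 lens genes, at 1263 FPKM in early replicate 2, below its median of 1405 over the 6 libraries. Crygs, a gamma crystallin, was high in early replicate 2 and in late replicate 3, with 25.9, 103.7 and 41.0 FPKM early and 30.2, 42.3 and 91.3 late. Cryaa, the lens-restricted alpha A crystallin, had 29.8, 199 and 68.1 FPKM early and 24.6, 23.9 and 25.2 late. Crybb2 had 22.4, 163 and 31.0 early and 20.01, 29.9 and 4.06 late, and Cryba1 17.9, 89.95 and 28.0 early and 11.7, 13.8 and 7.79 late. Early replicate 2 was the highest library for these 3. Without it the means were 34.3 FPKM for Cryaa, 21.5 for Crybb2 and 15.8 for Cryba1. Bfsp1, Lgsn, Cryga, Hsf4, Lctl, Birc7, Mip, Dnase2b and Gja3 were below 1 FPKM.

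The summed level of epithelial markers was highest in late replicate 3. So were 16 of the 32 genes, against 18.85% of all genes of at least 1 FPKM. The list of 32 corneal and conjunctival epithelial genes, 17 of them at 1 FPKM, summed to 286, 470 and 419 FPKM early and 263, 261 and 711 late, and 45.7% of the mean was the widely expressed keratin Krt18. Krt18 had 173, 194 and 232 FPKM early and 152, 171 and 180 late, highest in early replicate 3, and Krt17 19.6, 36.0 and 23.7 early and 28.7, 13.8 and 15.8 late, highest in early replicate 2. Krt15, a keratin of basal epithelial cells, had 3.99, 36.4 and 25.04 FPKM early and 4.38, 6.68 and 121 late. Psca, a surface antigen of epithelia, was at 202 in late replicate 3 and between 21.5 and 78.0 elsewhere. Without late replicate 3 the means were 15.3 FPKM for Krt15 and 45.4 for Psca. Krt12, the corneal epithelial keratin, was at 16.4 there and between 1.15 and 7.76 in the others, and Krt5 at 15.5 and between 0.944 and 3.56.

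Pigment cell markers were highest in late replicate 2 for 11 of 19 genes and in late replicate 3 for 4. Over all genes of at least 1 FPKM these shares were 13.7% and 18.85%. Mlana, a melanosome protein, had 6.14, 4.90 and 7.20 FPKM early and 2.04, 33.5 and 31.7 late, and Dct, an enzyme of melanin synthesis, 7.98, 9.99 and 15.6 early and 2.41, 26.6 and 18.2 late. The list of 19 genes summed to 16.5 to 98.0 FPKM, and 8 reached 1 FPKM. Without Mlana the sum was 64.5 in late replicate 2, 40.5 in late replicate 3 and 39.3 in early replicate 3, so the last 2 were close. Ttr, the retinol carrier transthyretin, had 3.73, 4.04 and 12.3 FPKM early and 2.56, 17.4 and 4.82 late. Tyr, the first enzyme of melanin synthesis, was near 0 (0.0450 FPKM).

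Stromal markers were unequal. Dcn made up 80.8% of the keratocyte list, whereas Kera, the keratocyte proteoglycan keratocan, was at 6.20 ± 2.07 FPKM, Lum at 24.2 ± 6.74, Col1a2 at 64.2 ± 18.3 and Col1a1 at 7.70 ± 1.88. Ogn, osteoglycin, had 238 ± 100.2 FPKM, Fmod, fibromodulin, 86.3 ± 26.0 and Angptl7 82.3 ± 39.9. The keratocyte list summed to 9744 to 13820.3 FPKM. Aldh3a1, Aldh1a1 and Ptgds stand in both the stromal and the enzyme list. Of the trabecular meshwork list, Timp3 and Pdpn (284 ± 87.2) led. Fmod and Angptl7, which stand in this list too, came next, ahead of Mgp (60.3), and Myoc was at 10.5 FPKM.

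The photoreceptor list summed to 434 ± 211 FPKM and the inner retina list to 16800.1 ± 3884, of which 97.8% was Apoe. Of 29 photoreceptor genes 16 reached 1 FPKM, and Gnb1 (205 ± 169) and Unc119 (113 ± 38.8), which many tissues express, held most of the sum. Nr2e3, given above among the factors, Rom1 (18.1), Guca1a (13.9) and Sag (1.70) were lower. The photoreceptor sum was 810 FPKM in late replicate 2 and between 246 and 508 in the others. Without Gnb1 it was 292 in late replicate 2 and 288 in late replicate 3. Late replicate 2 was the highest library for 14 of the 29 genes, against 13.7% of all genes of at least 1 FPKM. Of 25 inner retina genes 4 reached 1 FPKM, Apoe, Glul, Slc1a3 (9.34) and Rbpms (5.88), all of them shared with other cells.

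Of 18 ciliary and iris genes, 17 were matched and 3 reached 1 FPKM, Car14, Wfdc1 (8.07) and Rdh5 (1.67). The myeloid list summed to 64.0 to 100.7 FPKM, with Lyz2 (25.9 ± 7.38), Cd74 (13.4 ± 3.19), H2-Ab1 (9.84), Tyrobp (5.71) and C1qb (5.24) leading, and Ptprc below 1. The vascular list summed to 40.7 to 80.5 FPKM, 73.9% of it Egfl7 (39.6 ± 16.0), with Erg at 6.21 and Pecam1 at 0.380 FPKM.

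Muscle genes were led by Acta2, smooth muscle actin (68.7 ± 22.8), while 3 troponins of striated muscle were low and uneven. Tnnc2 had 0.769, 1.39 and 9.47 FPKM early and 0.0518, 0.150 and 6.77 late, a mean of 3.10 that was 1.83 without early replicate 3. Tnni2 had 3.59, 1.26 and 4.49 FPKM early and 0.545, 1.15 and 8.77 late, and Tnnt3 0.509, 2.78 and 6.67 early and 1.29, 1.72 and 5.37 late. Early replicate 3 and late replicate 3 were the highest pair of libraries for each of the troponins. The pericyte list held Cox4i2 (26.5) and Pdgfrb (6.52) above 1 FPKM, and 6 others below it. Erythroid genes were led by Bpgm (113), a red cell glycolytic enzyme also found elsewhere, with Hba-a1 at 9.82 and Hbb-bs at 4.17. Schwann cell genes were led by Pmp22 (80.4 ± 11.7) and Ncmap (40.3 ± 4.53), while Cnp (3.60), Mbp (2.64) and S100b (1.31) were low.

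No lymphocyte gene reached 1 FPKM on average. The 12 matched genes summed to 0.396, 4.45 and 0.562 FPKM early and 0.866, 0.463 and 0.409 late. The highest sum was in early replicate 2, the library with counts in most genes of the table, and the mean was 1.19 with it and 0.539 without it. The part that neighbouring tissue has in the levels of the abundant genes was not tested.

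**Figure D5:**
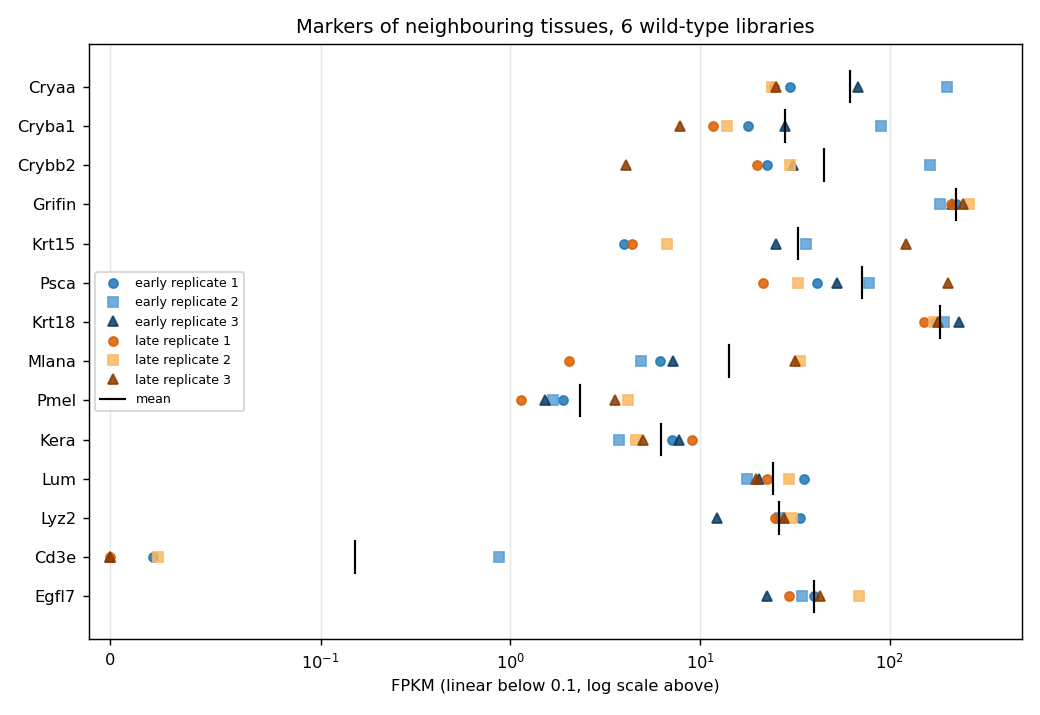
FPKM (linear below 0.1, log scale above) of 14 markers of lens, epithelium, pigment cells, stroma, myeloid cells, T cells and vessels, chosen for display after their values were seen, with 1 point per library and the mean as a black bar. Early replicate 2 is the highest for Cryaa, Cryba1, Crybb2 and Cd3e, late replicate 3 for Krt15 and Psca, and late replicates 2 and 3 for Mlana and Pmel.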

How the data were processed

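RNA of 6 wild-type corneal endothelium samples was analysed. Per the submitters' processing notes fastp, HISAT2, HTSeq and DESeq2 were used with the mouse build GRCm39. No source used here gives tool versions, annotation, strand setting or any batch adjustment. Per the labels' protocols libraries came from a strand-specific kit. Per gene, raw counts as whole numbers and FPKM values were deposited by the authors for the 12 libraries. A length per gene was derived from the deposited counts, FPKM values and library totals, pooled over the 6 libraries. Columns of the tables that map to no sample numbered 0. The authors' own comparison tables were not used beyond the gene annotation carried by the count table.

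Genes were ranked by mean FPKM, with 1 FPKM as the level taken as expressed. Late and early wild type were compared on the counts with edgeR 4.0.16 (R 4.3.3, TMM, filterByExpr, robust quasi-likelihood fit, 4 residual degrees of freedom), which kept 16058 genes. Tables were handled with pandas 2.3.3. The test was tested on simulated data with known fold changes. Named genes are the 20 leading protein-coding genes outside mitochondrial and ribosomal genes, up to 5 leading members per list, listed members below 1 FPKM, the 20 leading transcription factors, and the 10 most even genes and the 10 with the highest ratio of highest to median library. Some genes that the rule takes are not reported here. Genes outside this rule were named after their values were seen. The gene lists, and the choice of these libraries, were made with earlier results of these data known. Same-numbered early and late libraries did not deviate together (correlations -0.33, -0.27 and 0.01), so the numbers were not taken as pairs. Intervals are SDs over 6 libraries unless marked SE. An SE is the absolute log2 fold change divided by the square root of the test's F value, not an error estimated by the fit. Alternatives were other scalings, filters, tests, pseudocounts, thresholds and leaving out each library.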

Additional observations from a re-analysis of the deposited data

Results flagged for a closer look

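A value was singled out where 1 of the 6 libraries lay apart from the other 5 by more than 0.625 of the whole range, Dixon's critical value at 95%. Of 203 named genes and 35 lists examined, 20 genes and 2 lists met this. Chance alone marks about 1 in 20, but 10 of the genes were taken for a high ratio of highest to median library and 10 for evenness, so the count is not to be read against that share.

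Early replicate 2 was the high library for 6 genes, Cryaa (199 FPKM), Crybb2 (163), Cryba1 (89.95), Ncr1 (1.26), Ms4a1 (0.987) and Cd3e (0.869), and for the lymphocyte list (4.45). Without it the means were 34.3 FPKM for Cryaa, 21.5 for Crybb2, 15.8 for Cryba1, 0 for Ncr1, 0.0286 for Ms4a1 and 0.00871 for Cd3e. It also had counts in 31527 genes, and the part of that in these values was not tested. Late replicate 3 was the high library for Ftl1 (11035 FPKM), Psca (202), Krt15 (121), Lce3a (52.8) and Optc (2.16). Late replicate 2 was the high library for Sdc4 (842 FPKM) and the vascular list (80.5), and the low one for Eif1 (302).

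Early replicate 3 was the high library for Gpha2 (5081 FPKM against a median of 1652) and Wfdc1 (12.6). Early replicate 1 was high for Cnbp (466) and Spp1 (194) and low for Synpo2 (2.11). Late replicate 1 was high for Slc7a5 (47.2) and Atp1b2 (11.8).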

How the results depend on the processing

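The count of genes that differ between late and early wild type was 0 under DESeq2 size factors, DESeq2's Wald test, a filter of 5 CPM in 3 libraries, limma-voom, limma on log2(FPKM + 1) and log2(FPKM + 0.1), a fit of all 12 libraries and protein-coding genes alone. It was 30 with no low-count filter, 3 higher and 27 lower in late, among them Cryba1 (log2 fold change -1.86) and Cryaa (-1.83). That setting tested 32278 genes, including the 5866 with counts in early replicate 2 alone, and the part of that library was not tested. The count was 0 to 1 when each library was left out, the 1 being Gm38860 without early replicate 3. With the replicate numbers as a block it was 1 gene, Crygd, but the numbers do not pair the samples. The percent of FPKM in the 100 most abundant genes was 44.4 by CPM, which kept 59 of the 100 genes. Genes of at least 5 FPKM numbered 5076. The median spread was 0.44 as the SD of log2(FPKM + 0.1) and 0.963 with no minimum level. TPM, which sums to the same total in every library, gave mean list sums of 3066 for lens, 709 for photoreceptor, 27603 for inner retina, 19083 for stroma, 652 for epithelium, 154 for ciliary and iris, 1681 for trabecular meshwork, 154 for muscle, 87.7 for vessels, 56.3 for pericytes, 145 for myeloid cells, 221 for erythroid cells and 212 for Schwann cells. By its construction TPM is larger than FPKM here. TPM moved 171 of the 203 named gene levels by over 1 SD. Without early replicate 2, Cryaa went from 61.8 to 34.3 FPKM and Crybb2 from 45.0 to 21.5. Depth limits genes near 3 counts per library.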
